A study of Mus musculus with 15 samples.

Results

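Fatty acid oxidation and ketone body genes were followed across all 5 groups of an array study of FXR isoforms in mouse liver cells. The members were a fixed list of 49 genes, grouped by function: enzymes, transporters and coactivators of mitochondrial and peroxisomal fatty acid oxidation, acyl-CoA thioesterases and ketone body enzymes. The list was drawn up with earlier results of these data known, so shares of members set beside shares of all genes are descriptive. Of these, 48 had a probe set with a single gene symbol, among 18820 genes measured in all, and each was read from its brightest probe set. Cpt1b shares its probe set with another gene and was not analysed here. By role, 21 members were mitochondrial (3 of the carnitine shuttle, 11 acyl-CoA dehydrogenases and electron transfer flavoproteins, 7 later enzymes), 16 peroxisomal, 5 thioesterases, 4 ketone body enzymes and 2 coactivators.

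Male C57BL/6J mice gave the primary hepatocytes, which were infected with adenoviruses in culture and harvested for RNA 36 h after transduction, with 3 arrays in each of 5 groups. The groups were human FXRα4 with GFP, human FXRα3 with GFP, human FXRα2 with GFP, human FXRα1 with GFP, and GFP alone. All groups carried GFP, were starved of dexamethasone and insulin after the overnight transduction, and kept their own mouse FXR, so each isoform was added to the receptor already present. The isoforms differ in a pair of features: a short MYTG insert near the DNA-binding domain, present in FXRα3 and FXRα1 only, and the N-terminus, which is long in FXRα4 and FXRα3 and short in FXRα2 and FXRα1. The level of the human transgenes is not known from the mouse probe sets. Whether the 3 arrays of a group stem from different mice or dishes is not stated in the labels, and each p-value therefore reflects sample-to-sample spread that may be only technical.

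Hepatocytes burn fatty acids in mitochondria and, for very long, branched and bile-acid-like chains, in peroxisomes. Long chains enter mitochondria as carnitine esters, are shortened by acyl-CoA dehydrogenases, hydratases, hydroxyacyl-CoA dehydrogenases and thiolases, and yield acetyl-CoA that fasting liver turns into the ketone bodies acetoacetate and β-hydroxybutyrate. FXR is the bile acid receptor of the hepatocyte, and PPARα is the receptor best known for switching on these genes in fasting.

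Values are on the log2 scale of the deposited table, so a difference of 1 is a doubling, and differences are given ± SE from limma with 3 arrays a group. Genes with a Benjamini-Hochberg adjusted p under 0.05 over all 18820 genes are said to have risen or fallen. Array medians over all 35556 probe sets, including those without a gene, lay between 4.92 and 5.01. Across the 18820 genes, arrays correlated with r from 0.997 to 0.999 within a group and from 0.985 to 0.998 between groups. Most members were bright: 8 lay above the 90th percentile of gene means, and 9 below the median gene (Acad12, Acaa1b, Abcd2, Acot1, Acot3, Bdh2, Oxct1, Ppargc1a and Ppargc1b). Centring every array on its own median gene changed the scale: the median of all genes moved by −0.21 for FXRα4 against GFP, −0.22 for FXRα2 and −0.10 for FXRα1, by −0.17 for FXRα4 against FXRα3 and by −0.12 for FXRα2 against FXRα1, and every member moved with it. Quantile normalization and 75th percentile centring moved that median by −0.051 to 0.040 over the 8 comparisons. Of 10 measured hepatocyte markers, all brighter than the median gene, 6 rose with FXRα4, 4 with FXRα3 (1 fell), 7 with FXRα2 and 2 with FXRα1 (1 fell). The mean of 5 cholangiocyte markers lay between 6.83 and 6.97 with FXRα4, 6.53 and 6.59 with FXRα3, 6.69 and 6.82 with FXRα2, 6.44 and 6.45 with FXRα1, and 5.92 and 5.98 with GFP. Of these 5 markers, 2 rose and 1 fell with FXRα4 and also with FXRα2, so they did not move as 1. With FXRα3 and with FXRα1, 3 rose and 0 fell. The part of these markers in the results was not tested. The means of markers of macrophages, endothelial cells, stellate cells, and lymphocytes with neutrophils lay between 3.62 and 4.89 in every group.

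On the deposited scale, the balance of rises and falls against GFP differed between the isoforms. With median centring, more members fell than rose with each of them. With FXRα4, 12 of the 48 members rose and 18 fell (25% and 37.5%), against 18% and 15.7% of all genes, and with median centring 6 rose and 28 fell. With FXRα3, 1 rose and 13 fell (2.08% and 27.1%), against 7.45% and 6.62% of all genes, and with median centring 1 rose and 15 fell. FXRα2 raised 21 and lowered 8 (43.8% and 16.7%), against 17.5% and 16.7% of all genes. With median centring 9 rose and 21 fell, so the balance of direction depended on the scaling. That centring also moved the median of all genes, by −0.22 with FXRα2. All-gene shares were counted without it only, so the counts with median centring have no such share beside them. FXRα1 raised 8 and lowered 7 (16.7% and 14.6%), against 8.42% and 4% of all genes, and with median centring 4 rose and 13 fell. The median member stood at −0.020 with FXRα4, −0.081 with FXRα3, 0.12 with FXRα2 (−0.10 with median centring) and −0.0062 with FXRα1, beside all-gene medians of −0.027, −0.0026, −0.048 and 0.0035. Among the 39 members brighter than the median gene, 8 rose and 17 fell with FXRα4, 1 and 12 with FXRα3, 19 and 7 with FXRα2, and 7 and 5 with FXRα1. The shares of all genes brighter than the median gene that rose and fell were 26.9% and 27.6% for FXRα4, 13.4% and 11.9% for FXRα3, 27.3% and 28.4% for FXRα2, and 15.1% and 7.04% for FXRα1. The 4 comparisons share the GFP arrays. Without GFP replicate 3 or FXRα2 replicate 2, the members that fell with FXRα2 numbered 5, and the 1 rise with FXRα3, in Acox3, was lost without GFP replicate 1, while 3 members rose without FXRα1 replicate 2 or 3 or FXRα2 replicate 3, and 2 without FXRα1 replicate 1, FXRα3 replicate 3 or FXRα4 replicate 3.

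**Figure D1:**
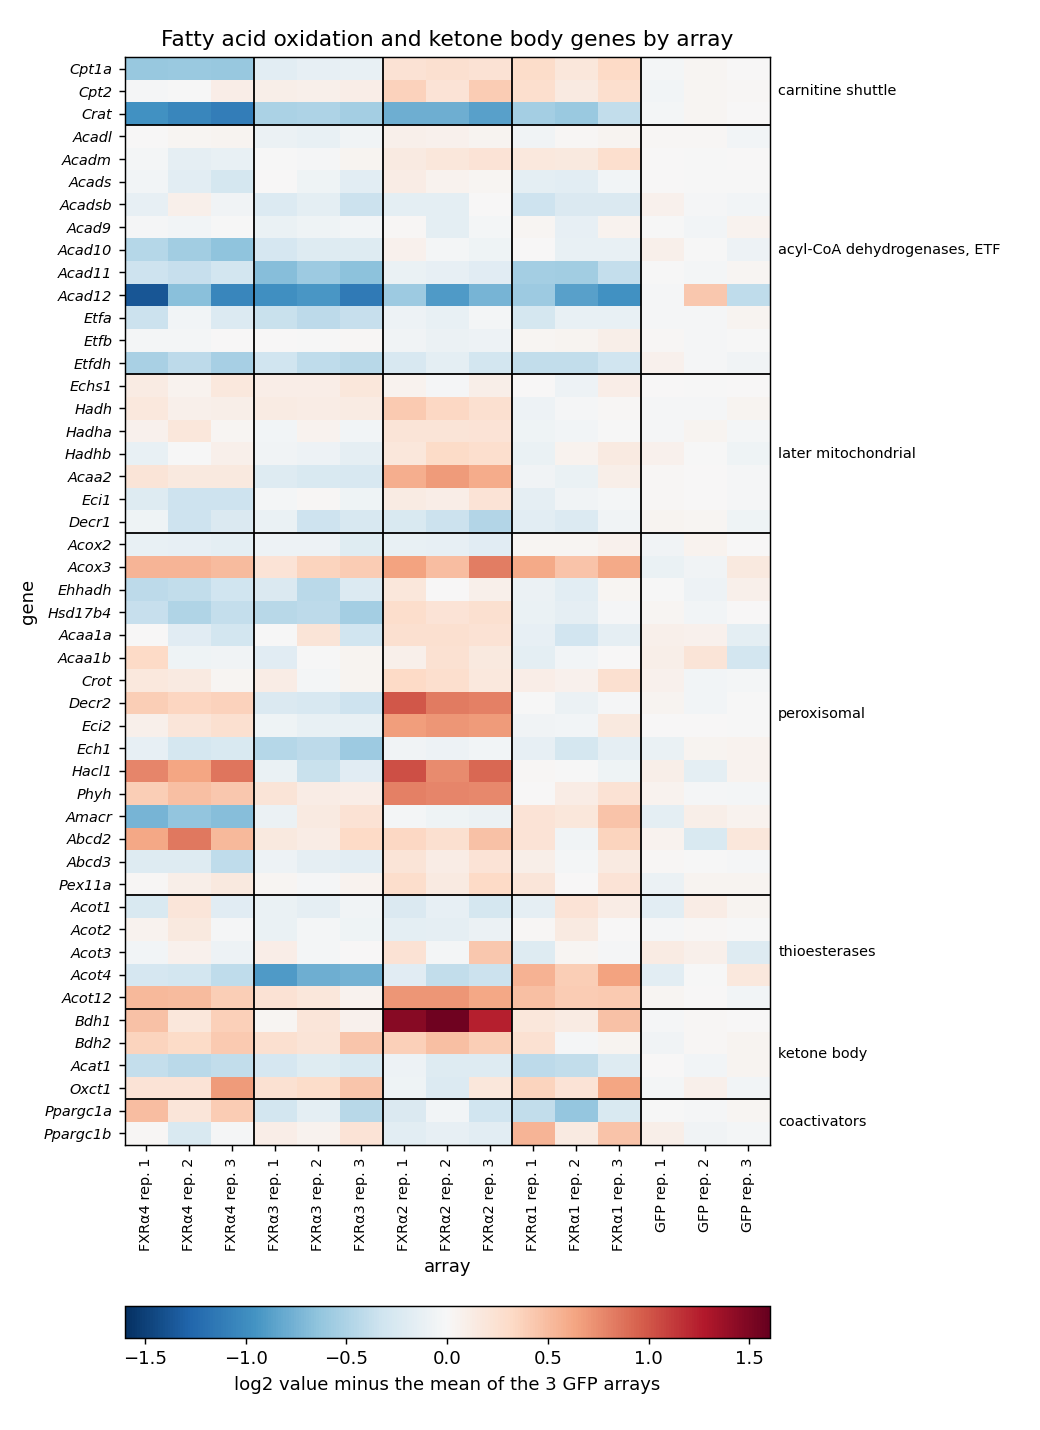
Each row is 1 of 48 genes and each column 1 of 15 arrays, in the order FXRα4, FXRα3, FXRα2, FXRα1 and GFP. Colour is the log2 value minus the mean of the 3 GFP arrays. Bdh1, Decr2, Hacl1, Phyh and Eci2 are red in the FXRα2 arrays, Crat is blue in every isoform array, and Cpt1a and Amacr are blue with FXRα4.

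Of the 16 peroxisomal genes, 6 rose and 6 fell with FXRα4, 1 rose and 4 fell with FXRα3, 10 rose and 1 fell with FXRα2, and 2 rose and 0 fell with FXRα1. In that order, rises took in 18%, 7.45%, 17.5% and 8.42% of all genes, and falls 15.7%, 6.62%, 16.7% and 4%. Of the 10 rises with FXRα2, those of Hsd17b4, Crot, Abcd2, Abcd3 and Pex11a lost their calls with median centring (−0.040 to 0.13). Most of the large rises were in enzymes of branched or unsaturated chains: Hacl1, the lyase that cleaves hydroxylated phytanic acid; Phyh, the hydroxylase that acts just before it; Decr2, the peroxisomal dienoyl-CoA reductase; and Eci2, an enoyl-CoA isomerase. Abcd3 with FXRα2 and Eci2 with FXRα4 changed sign with median centring, at −0.040 and −0.036.

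Hacl1 read 7.85, 7.69 and 7.92 with FXRα4, 6.96, 6.70 and 6.88 with FXRα3, 8.09, 7.82 and 7.98 with FXRα2, 7.08, 7.05 and 6.99 with FXRα1, and 7.16, 6.91 and 7.12 with GFP. All arrays of both isoforms without the insert lay above all other arrays, while FXRα3 and FXRα1 each overlapped GFP. Hacl1 rose by 0.76 ± 0.09 with FXRα4 (limma adjusted p = 6.89e-07) and 0.90 ± 0.09 with FXRα2 (adjusted p = 4.9e-08). Decr2 read 9.31, 9.26 and 9.28 with FXRα4, 8.68, 8.66 and 8.59 with FXRα3, 9.90, 9.74 and 9.73 with FXRα2, 8.91, 8.82 and 8.89 with FXRα1, and 8.96, 8.87 and 8.91 with GFP. Its order was FXRα2, FXRα4, then FXRα1 with GFP, which overlapped, then FXRα3. Decr2 rose by 0.37 ± 0.06 with FXRα4 (adjusted p = 9.85e-06) and 0.88 ± 0.06 with FXRα2 (adjusted p = 2.07e-11), a 1.84-fold rise, and fell by 0.27 ± 0.06 with FXRα3 (adjusted p = 0.0012).

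Phyh read 8.93, 9.02 and 8.97 with FXRα4, 8.74, 8.65 and 8.64 with FXRα3, 9.35, 9.32 and 9.31 with FXRα2, 8.54, 8.66 and 8.77 with FXRα1, and 8.60, 8.51 and 8.50 with GFP. The FXRα2 arrays were above all others, the FXRα4 arrays came next without overlap, and FXRα3 and FXRα1 overlapped each other. Phyh rose by 0.43 ± 0.06 with FXRα4 (limma adjusted p = 3.5e-06) and 0.79 ± 0.06 with FXRα2 (adjusted p = 4.28e-10). Eci2 read 8.85, 8.97 and 9.03 with FXRα4, 8.71, 8.65 and 8.65 with FXRα3, 9.44, 9.48 and 9.45 with FXRα2, 8.72, 8.72 and 8.93 with FXRα1, and 8.78, 8.77 and 8.76 with GFP. The FXRα2 arrays lay above all others and the FXRα3 arrays below all others, while FXRα4, FXRα1 and GFP overlapped in part. Eci2 rose by 0.68 ± 0.06 with FXRα2 (adjusted p = 4.99e-09). Its rise of 0.18 ± 0.06 with FXRα4 (adjusted p = 0.0264) was lost without FXRα4 replicate 2 (0.17) or 3 (0.14), or without GFP replicate 1 (0.18), 2 (0.18) or 3 (0.17), and its sign changed with median centring (−0.036).

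Acox3, the oxidase for branched chains, was the 1 peroxisomal gene to rise with every isoform. It read 8.26, 8.27 and 8.23 with FXRα4, 7.94, 8.07 and 8.12 with FXRα3, 8.36, 8.22 and 8.54 with FXRα2, 8.32, 8.17 and 8.32 with FXRα1, and 7.62, 7.66 and 7.88 with GFP, so that all isoform arrays lay above the GFP arrays. The rises were 0.53 ± 0.08, 0.33 ± 0.08, 0.66 ± 0.08 and 0.55 ± 0.08 for FXRα4, FXRα3, FXRα2 and FXRα1 (limma adjusted p = 1.66e-05, 0.00801, 1.09e-06 and 4.45e-05), and the FXRα3 call was lost without GFP replicate 1 (0.28). A much dimmer Acox3 probe set, at a mean of 4.11, did not pass in any comparison. Amacr, the racemase for branched and bile acid side chains, went the other way with FXRα4. It read 7.40, 7.50 and 7.46 with FXRα4, 8.04, 8.28 and 8.36 with FXRα3, 8.10, 8.06 and 8.04 with FXRα2, 8.35, 8.32 and 8.59 with FXRα1, and 7.98, 8.23 and 8.19 with GFP. Only the FXRα4 arrays lay below GFP, and Amacr fell by 0.68 ± 0.09 (adjusted p = 1.17e-06). Its rise of 0.29 ± 0.09 with FXRα1 was lost without FXRα1 replicate 3 (0.20) or GFP replicate 1 (0.21). That call was also lost with median centring (0.18) and without the mean-variance trend.

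Both bifunctional enzymes of peroxisomal β-oxidation were lower with the long forms. Hsd17b4, the D-bifunctional protein, read 9.05, 8.94 and 9.04 with FXRα4, 8.98, 9.003 and 8.88 with FXRα3, 9.70, 9.63 and 9.67 with FXRα2, 9.31, 9.28 and 9.40 with FXRα1, and 9.45, 9.38 and 9.43 with GFP. Both long forms lay below GFP, FXRα2 lay above it and FXRα1 overlapped it. Hsd17b4 fell by 0.41 ± 0.05 with FXRα4 (limma adjusted p = 1.5e-06) and by 0.46 ± 0.05 with FXRα3 (adjusted p = 1.22e-06), and its rise of 0.25 ± 0.05 with FXRα2 (adjusted p = 0.000555) was lost with median centring (0.030). Ehhadh, the L-bifunctional protein and a well-known PPARα target, read 6.73, 6.76 and 6.82 with FXRα4, 6.92, 6.71 and 6.93 with FXRα3, 7.33, 7.15 and 7.22 with FXRα2, 7.05, 6.98 and 7.17 with FXRα1, and 7.14, 7.07 and 7.22 with GFP. The long forms lay below GFP and the short forms overlapped it. Ehhadh fell by 0.37 ± 0.09 with FXRα4 (adjusted p = 0.00121). Its fall of 0.29 ± 0.09 with FXRα3 (adjusted p = 0.0227) was lost without FXRα3 replicate 2 (−0.22), GFP replicate 1 (−0.29) or GFP replicate 3 (−0.25).

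Of the other peroxisomal members, Ech1, a dienoyl-CoA isomerase, fell with FXRα3 (−0.49) and FXRα4 (−0.22), the second call being lost without FXRα4 replicate 2 (−0.19), GFP replicate 2 (−0.20) or 3 (−0.19). Abcd3, the transporter of branched and bile acid precursors, fell with FXRα4 (−0.27). Its rise with FXRα2 (0.18, and −0.040 with median centring) was lost without FXRα2 replicate 1 (0.17) or 3 (0.16), or GFP replicate 3 (0.17). Abcd2, a transporter of very long chains with a dim probe set, read 4.58, 4.81 and 4.48 with FXRα4, 4.11, 4.08 and 4.27 with FXRα3, 4.29, 4.21 and 4.42 with FXRα2, 4.17, 3.91 and 4.31 with FXRα1, and 4.02, 3.72 and 4.14 with GFP. The FXRα4 arrays were above all others. Abcd2 rose by 0.66 ± 0.12 with FXRα4 (limma adjusted p = 0.000167, and by 0.36 with 16 added to the linear values), and its call with FXRα2 (0.35) was lost without FXRα2 replicate 1 (0.36) or 3 (0.29), or GFP replicate 2 (0.23). Crot (0.25), which loads medium chains onto carnitine for export from the peroxisome, and Pex11a (0.25), a factor of peroxisome division, rose with FXRα2, calls lost with median centring (0.029 and 0.025). Acox2, the bile acid precursor oxidase, fell by 0.14 with FXRα4 and by 0.15 with FXRα2, and the FXRα4 call was lost without any of 5 arrays (FXRα4 replicates 1, 2 and 3 and GFP replicates 2 and 3, −0.14 to −0.11) and with 75th percentile centring (−0.12), the FXRα2 call without any of 3 (FXRα2 replicate 3 and GFP replicates 2 and 3, −0.14 to −0.12). The near-identical thiolase genes Acaa1a and Acaa1b, between which an array may not distinguish, did not pass against GFP with any isoform.

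Among ketone body genes, Bdh1 gave the largest rise of all 48 members. Bdh1 encodes the mitochondrial dehydrogenase that interconverts acetoacetate and β-hydroxybutyrate. It read 5.87, 5.58 and 5.78 with FXRα4, 5.43, 5.60 and 5.46 with FXRα3, 6.86, 6.96 and 6.64 with FXRα2, 5.58, 5.53 and 5.87 with FXRα1, and 5.37, 5.42 and 5.40 with GFP. The FXRα2 arrays lay well above every other array, and the other isoforms lay just above GFP. Bdh1 rose by 1.42 ± 0.11 with FXRα2 (limma adjusted p = 9.88e-10), a 2.68-fold rise and the only one of at least 2-fold against GFP among the 48 members. Its rise of 0.35 ± 0.11 with FXRα4 (adjusted p = 0.0195) was lost with quantile normalization (0.16) and median centring (0.14), and without FXRα4 replicate 1 (0.28) or 3 (0.33) or GFP replicate 1 (0.34), and it did not pass with FXRα3 (0.10, adjusted p = 0.744) or FXRα1 (0.26, adjusted p = 0.161).

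Acat1, the mitochondrial acetoacetyl-CoA thiolase, was lower with every isoform: it fell by 0.40 with FXRα4, 0.23 with FXRα3, 0.16 with FXRα2 and 0.34 with FXRα1. The FXRα2 call was lost without FXRα2 replicate 2 (−0.14) or 3 (−0.14) or GFP replicate 1 (−0.16) or 3 (−0.14). Bdh2, a cytosolic relative of Bdh1, rose with FXRα4 (0.36, lost with quantile normalization, 0.18, and median centring, 0.15) and FXRα2 (0.42, lost with median centring, 0.19). Oxct1, the transferase with which other tissues burn ketone bodies and which hepatocytes barely express, was dim, and its rise with FXRα4 (0.37) was lost with quantile normalization (0.22) and median centring (0.16), and without FXRα4 replicate 3 (0.22) or GFP replicate 1 (0.35), 2 (0.41) or 3 (0.35). Oxct1 also fell in FXRα2 against FXRα1 (−0.43), a call lost without FXRα1 replicate 3 (−0.32) or FXRα2 replicate 1 (−0.41) or 2 (−0.34).

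Promoter sequence was set beside the members that were higher with FXRα2 than with FXRα1 by at least 0.5, which were Bdh1, Hacl1, Decr2, Phyh, Eci2 and Acaa2. RefSeq promoters (GRCm38.p6, 250 bases before to 50 after the start) matched 39 of the 48 members, with 43 starts; Hsd17b4, Abcd2, Acat1, Acad9, Crat, Decr1, Amacr, Ppargc1b and Acaa2 had no entry. The nuclear receptor hexamer AGGTCA, searched on both strands, was in 8 of the 43 windows (18.6%), against 16.3% of all 32851 promoters, and its variant AGTTCA was in 5 (11.6%), against 14% of all. The paired forms AGGTCANTGACCT (an inverted repeat spaced by 1, the classical FXR element), AGGTCANAGGTCA (a direct repeat spaced by 1, the PPARα type) and TGACCTNNAGGTCA (an everted repeat spaced by 2) were in 0 member windows, and in 0.00913%, 0.0396% and 0.0152% of all promoters. Of the 6 members, a hexamer was found in Bdh1 and in Phyh, and these are shown with Hacl1, which was high in both isoforms without the insert and held none. In all, 12 of the 39 members held either hexamer in at least 1 window, Cpt1a, Acot4 and Acot12 among them, while 27.7% of all promoters did. The first count is of genes, some with more than 1 window, and the second of single windows, so they are unlike units. Capitals mark the hexamers on either strand, and each sequence runs 5′ to 3′ along the gene: Bdh1 is at chr16:31422047-31422346, plus strand, Phyh at chr2:4918746-4919045, plus strand and Hacl1 at chr14:31640916-31641215, minus strand.
Bdh1: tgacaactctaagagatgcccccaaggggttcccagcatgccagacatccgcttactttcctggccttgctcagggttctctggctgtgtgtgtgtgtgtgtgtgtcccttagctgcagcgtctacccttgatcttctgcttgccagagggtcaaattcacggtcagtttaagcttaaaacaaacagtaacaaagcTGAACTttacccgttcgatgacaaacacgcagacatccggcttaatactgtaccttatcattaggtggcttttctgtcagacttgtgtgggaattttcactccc
Phyh: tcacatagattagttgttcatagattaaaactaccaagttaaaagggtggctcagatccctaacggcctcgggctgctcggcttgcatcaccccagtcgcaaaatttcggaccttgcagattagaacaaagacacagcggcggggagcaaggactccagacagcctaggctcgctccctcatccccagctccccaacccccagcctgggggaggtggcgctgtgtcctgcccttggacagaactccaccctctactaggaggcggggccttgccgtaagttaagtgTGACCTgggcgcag
Hacl1: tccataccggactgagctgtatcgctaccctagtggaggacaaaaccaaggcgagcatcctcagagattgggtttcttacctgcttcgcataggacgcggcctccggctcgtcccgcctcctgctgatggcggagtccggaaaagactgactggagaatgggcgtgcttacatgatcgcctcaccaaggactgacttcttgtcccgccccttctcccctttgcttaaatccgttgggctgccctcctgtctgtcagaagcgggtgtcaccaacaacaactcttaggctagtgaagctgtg
The Bdh1 site, AGTTCA on the opposite strand, begins 54 bases before the start, while the window of another Bdh1 start held none, and the Phyh site, AGGTCA on the opposite strand, begins 36 bases after the start. A match describes letters in this window and says nothing about binding.

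**Figure D2:**
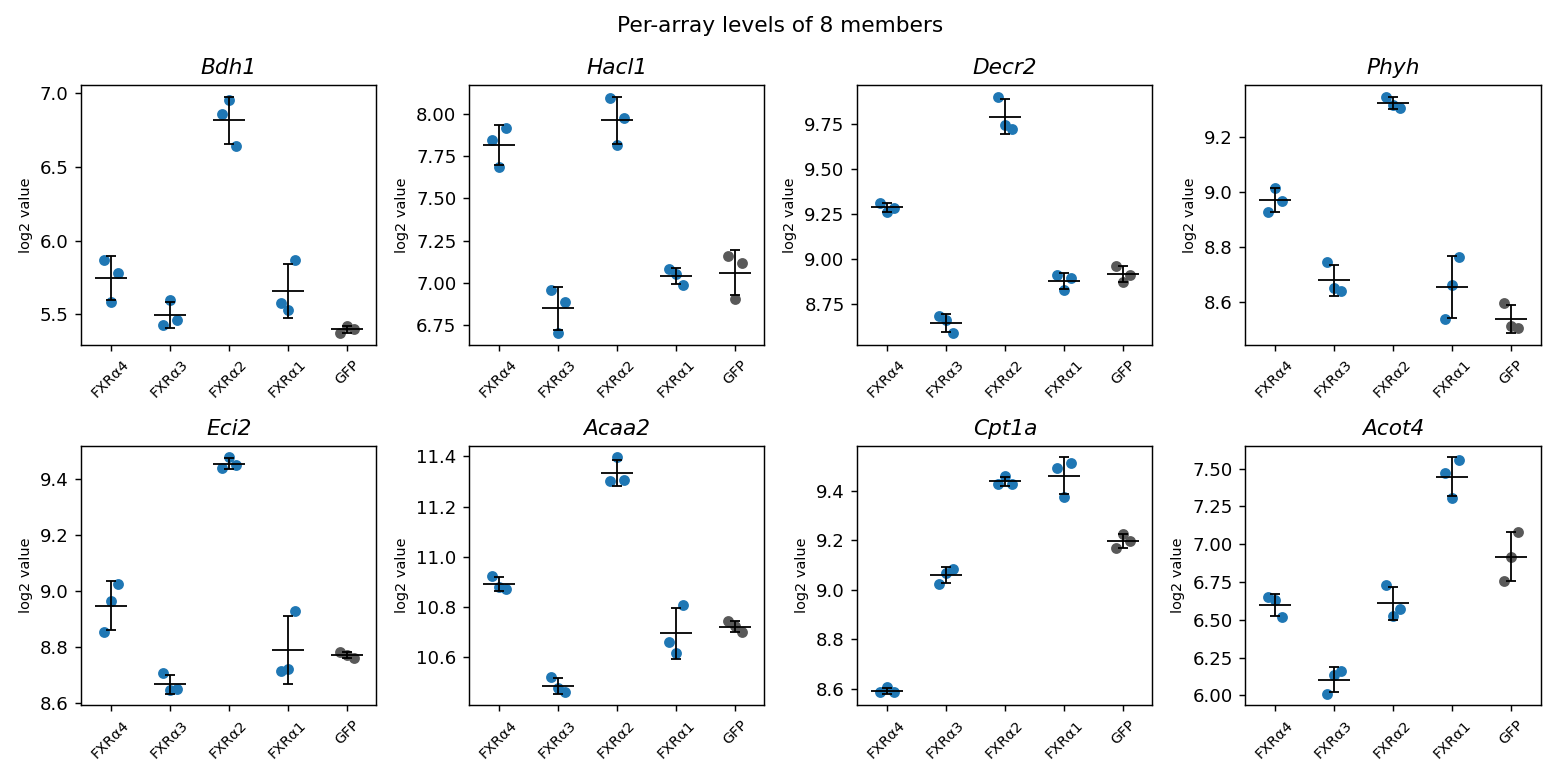
Each panel plots 1 gene, with the log2 value of each array as a point and the group mean ± SD (n = 3) as a bar, for FXRα4, FXRα3, FXRα2, FXRα1 and GFP from left to right. FXRα2 is highest for Bdh1, Decr2, Phyh, Eci2 and Acaa2, FXRα4 is lowest for Cpt1a, and Acot4 is highest with FXRα1 and lowest with FXRα3. The vertical axes do not start at 0 and differ between panels.

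Of the 3 carnitine shuttle genes, Cpt1a and Cpt2 fell with the long N-terminus against the short one (−0.62 and −0.22), and Crat did not pass (−0.12). Cpt1a encodes the liver carnitine palmitoyltransferase of the outer membrane, the rate-limiting step of long-chain oxidation. It read 8.59, 8.61 and 8.59 with FXRα4, 9.02, 9.07 and 9.08 with FXRα3, 9.43, 9.46 and 9.43 with FXRα2, 9.49, 9.38 and 9.51 with FXRα1, and 9.17, 9.22 and 9.20 with GFP. FXRα4 lay lowest, FXRα3 lay between FXRα4 and GFP, and both short forms lay above GFP and overlapped each other. Cpt1a fell by 0.60 ± 0.05 with FXRα4 (limma adjusted p = 1.69e-09), did not pass with FXRα3 (−0.14 ± 0.05, adjusted p = 0.0693), and rose by 0.24 ± 0.05 with FXRα2 (adjusted p = 0.000448, and 0.019 with median centring, where the call was lost) and 0.26 ± 0.05 with FXRα1 (adjusted p = 0.00059, and 0.16 with median centring). Cpt2, the inner-membrane partner of Cpt1a, rose with FXRα2 (0.33) and FXRα1 (0.23, a call lost with median centring, at 0.12).

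Crat, the carnitine acetyltransferase that buffers acetyl-CoA, fell with all 4 isoforms. It read 7.99, 7.91 and 7.85 with FXRα4, 8.45, 8.47 and 8.42 with FXRα3, 8.18, 8.17 and 8.09 with FXRα2, 8.42, 8.36 and 8.56 with FXRα1, and 8.92, 8.99 and 8.96 with GFP. No isoform array reached the GFP arrays, and the isoforms without the insert were below those with it. The falls were 1.04 ± 0.06, 0.51 ± 0.06, 0.81 ± 0.06 and 0.51 ± 0.06 for FXRα4, FXRα3, FXRα2 and FXRα1 (limma adjusted p = 1.27e-11, 3.05e-06, 5.67e-10 and 3.17e-06), so Crat fell to 0.486 of its GFP level with FXRα4.

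Of the 11 acyl-CoA dehydrogenase and electron transfer genes, 6 fell with FXRα4, 5 with FXRα3, 2 with FXRα2 and 4 with FXRα1. Falls over all genes were 15.7%, 6.62%, 16.7% and 4% in that order, so the share with FXRα2 (18.2%) was near that of all genes. For genes brighter than the median gene the falls were 27.6%, 11.9%, 28.4% and 7.04%. Members of this role that rose numbered 0, 0, 1 and 1, beside rises in 18%, 7.45%, 17.5% and 8.42% of all genes. The rise was in Acadm, the medium-chain dehydrogenase, at 0.18 with FXRα2 (−0.037 with median centring) and 0.20 with FXRα1 (0.096 with median centring, where the call was lost). Etfdh, the oxidoreductase that passes electrons from all of these enzymes to ubiquinone, fell by 0.49, 0.39, 0.24 and 0.37 with FXRα4, FXRα3, FXRα2 and FXRα1. Acad11, a dehydrogenase of very long and 4-hydroxy chains, read 8.99, 8.95 and 9.03 with FXRα4, 8.64, 8.73 and 8.66 with FXRα3, 9.21, 9.18 and 9.14 with FXRα2, 8.77, 8.76 and 8.93 with FXRα1, and 9.31, 9.29 and 9.35 with GFP. All isoform arrays lay below GFP, with those carrying the insert lowest. It fell by 0.33 ± 0.05 with FXRα4, 0.64 ± 0.05 with FXRα3 and 0.49 ± 0.05 with FXRα1 (limma adjusted p = 4.47e-05, 2.27e-08 and 9.3e-07), and did not pass with FXRα2 (−0.14, adjusted p = 0.056).

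Acad10 read 5.60, 5.51 and 5.42 with FXRα4, 5.80, 5.86 and 5.85 with FXRα3, 6.12, 6.03 and 5.99 with FXRα2, 6.07, 5.94 and 5.94 with FXRα1, and 6.15, 6.06 and 5.98 with GFP. The FXRα4 arrays were lowest and the short forms overlapped GFP, with a fall of 0.55 ± 0.09 with FXRα4 (limma adjusted p = 5.28e-05). Its relative Acad12, dim and scattered, read 4.01, 4.72 and 4.34 with FXRα4, 4.39, 4.44 and 4.25 with FXRα3, 4.80, 4.47 and 4.63 with FXRα2, 4.79, 4.51 and 4.41 with FXRα1, and 5.36, 5.81 and 4.97 with GFP. All isoform arrays were below all GFP arrays and the isoforms overlapped one another. Acad12 fell by 1.02 ± 0.18, 1.02 ± 0.18, 0.75 ± 0.18 and 0.81 ± 0.18 for FXRα4, FXRα3, FXRα2 and FXRα1 (adjusted p = 6.61e-05, 0.00025, 0.0018 and 0.00284), and with 16 added to the linear values both 1.02 falls were 0.66. Acadl, Acad9 and Etfb did not pass against GFP with any isoform. Acads fell with FXRα4 (−0.16), a call lost with quantile normalization (−0.14) and 75th percentile centring (−0.15), and without FXRα4 replicate 2 or 3 or any of the 3 GFP arrays (−0.17 to −0.10). Etfa fell with FXRα4 (−0.20, lost without FXRα4 replicate 1, −0.13, or 3, −0.19, or GFP replicate 3, −0.18) and FXRα3 (−0.38). Acadsb, the short branched-chain enzyme, fell with FXRα3 (−0.24, lost without FXRα3 replicate 1 or 3 or GFP replicate 1 or 2, −0.25 to −0.19) and FXRα1 (−0.27, lost without FXRα1 replicate 1 or GFP replicate 1, −0.23 each).

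The later mitochondrial enzymes rose mainly with FXRα2, where 5 of 7 rose and 1 fell. With FXRα4, 1 rose and 2 fell, with FXRα3, 0 rose and 1 fell, and with FXRα1, 0 rose and 0 fell. Over all genes, 18%, 7.45%, 17.5% and 8.42% rose with FXRα4, FXRα3, FXRα2 and FXRα1, and 15.7%, 6.62%, 16.7% and 4% fell. Among genes brighter than the median gene, 27.3% rose and 28.4% fell with FXRα2. Acaa2, the mitochondrial thiolase of the last step, read 10.92, 10.88 and 10.87 with FXRα4, 10.52, 10.47 and 10.46 with FXRα3, 11.30, 11.40 and 11.31 with FXRα2, 10.66, 10.61 and 10.81 with FXRα1, and 10.74, 10.72 and 10.70 with GFP. FXRα2 was highest, FXRα4 next, FXRα1 overlapped GFP and FXRα3 was lowest. Acaa2 rose by 0.61 ± 0.05 with FXRα2 (limma adjusted p = 3.53e-10) and fell by 0.24 ± 0.05 with FXRα3 (adjusted p = 0.000801), while its rise of 0.17 ± 0.05 with FXRα4 (adjusted p = 0.00498) was −0.040 with median centring. The other rises with FXRα2 were smaller and depended on the scaling: Hadh, the short-chain hydroxyacyl-CoA dehydrogenase (0.34, and 0.12 with median centring), Hadhb (0.25, and 0.033) and Hadha (0.21, and −0.0075), the subunits of the trifunctional protein, and Eci1 (0.15, and −0.069). The call for Eci1 was also lost without FXRα2 replicate 3 (0.12), GFP replicate 2 (0.15) or GFP replicate 3 (0.14). A second Hadhb probe set of like brightness gave 0.23 with FXRα2 (adjusted p = 0.00807). Decr1, the mitochondrial dienoyl-CoA reductase, fell by 0.35 with FXRα2, opposite to its peroxisomal counterpart Decr2, and by 0.21 with FXRα4, a call lost without FXRα4 replicate 2 (−0.15) or 3 (−0.20) or GFP replicate 1 (−0.19) or 2 (−0.20). Echs1, the short-chain hydratase, did not pass with any isoform.

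Among thioesterases, which free fatty acids from coenzyme A, Acot12 and Acot4 changed most. Acot12, the cytosolic acetyl-CoA hydrolase of liver, read 10.07, 10.06 and 9.94 with FXRα4, 9.78, 9.74 and 9.61 with FXRα3, 10.27, 10.26 and 10.18 with FXRα2, 10.03, 9.97 and 9.97 with FXRα1, and 9.59, 9.56 and 9.51 with GFP. Every isoform array was above every GFP array. Acot12 rose by 0.47 ± 0.05 with FXRα4, 0.68 ± 0.05 with FXRα2 and 0.43 ± 0.05 with FXRα1 (limma adjusted p = 1.6e-07, 4.84e-10 and 2.37e-06), and did not pass with FXRα3 (0.15, adjusted p = 0.0525). Acot4, a peroxisomal succinyl-CoA hydrolase in mouse, read 6.65, 6.63 and 6.52 with FXRα4, 6.01, 6.14 and 6.16 with FXRα3, 6.73, 6.52 and 6.57 with FXRα2, 7.47, 7.31 and 7.56 with FXRα1, and 6.75, 6.92 and 7.08 with GFP. FXRα1 was above GFP, the other isoforms below it, and FXRα4 and FXRα2 overlapped. Acot4 rose by 0.53 ± 0.10 with FXRα1 (adjusted p = 0.000502) and fell by 0.81 ± 0.10 with FXRα3 (adjusted p = 2.5e-06), and its falls of 0.32 with FXRα4 and 0.31 with FXRα2 were lost without GFP replicate 3 (−0.24 and −0.23), and without FXRα4 replicate 3 (−0.28) and FXRα2 replicate 2 (−0.26). Acot2, the brightest member, fell with FXRα2 (−0.13), lost with quantile normalization (−0.091) and 75th percentile centring (−0.14), and without FXRα2 replicate 1 (−0.12) or 2 (−0.12) or GFP replicate 2 (−0.12), and Acot1 and Acot3 did not pass in any comparison. Acot1 to Acot4 are close paralogs, so probes may share signal between them.

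The coactivators were dim. Ppargc1a, which drives oxidation and gluconeogenesis in fasting liver, read 5.92, 5.62 and 5.83 with FXRα4, 5.14, 5.27 and 4.98 with FXRα3, 5.20, 5.39 and 5.12 with FXRα2, 5.04, 4.81 and 5.19 with FXRα1, and 5.43, 5.41 and 5.45 with GFP. FXRα4 lay above GFP and the other 3 isoforms below it. Its rise of 0.36 ± 0.12 with FXRα4 (limma adjusted p = 0.0204) was lost with median centring (0.15) and quantile normalization (0.17), and without FXRα4 replicate 1 (0.30) or 3 (0.34) or GFP replicate 1 (0.36) or 2 (0.35), and its fall of 0.42 ± 0.12 with FXRα1 (adjusted p = 0.0213) was lost without FXRα1 replicate 2 (−0.32) or GFP replicate 1 (−0.42), 2 (−0.43) or 3 (−0.40). A dimmer Ppargc1a probe set, at a mean of 3.88, rose with FXRα4 (0.57, adjusted p = 0.00105) and did not pass with FXRα1 (0.072, adjusted p = 0.824). Ppargc1b read 5.37, 5.11 and 5.34 with FXRα4, 5.45, 5.41 and 5.57 with FXRα3, 5.18, 5.22 and 5.18 with FXRα2, 5.90, 5.49 and 5.81 with FXRα1, and 5.44, 5.29 and 5.32 with GFP. The FXRα1 arrays lay above GFP and overlapped FXRα3, and the FXRα2 arrays lay below GFP and overlapped FXRα4. Its rise of 0.38 with FXRα1 was lost without FXRα1 replicate 1 (0.30) or 3 (0.34) or GFP replicate 2 (0.35) or 3 (0.37). That call was also lost with median centring (0.28) and with the contrast's groups alone.

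FXRα4 against FXRα3 and FXRα2 against FXRα1 compare isoforms that differ by loss of the insert, on the long and the short N-terminus, and the 2 pairs share no arrays. Without the insert on the long form, 13 members rose and 6 fell (27.1% and 12.5%), against 15.8% and 13.8% of all genes, but with median centring 6 rose and 18 fell. On the short form, 17 rose and 9 fell (35.4% and 18.8%), against 14.1% and 17.1% of all genes. The split there was 10 and 13 with median centring, 23 and 6 with 75th percentile centring. All-gene shares were not counted with either centring. The member medians were 0.051 and 0.13 (−0.12 and 0.012 with median centring), beside all-gene medians of −0.017 and −0.041. Among the 39 brighter members 11 rose and 6 fell on the long form and 16 rose and 7 fell on the short form, against 23.2% and 24.4%, and 21.3% and 29.8%, of all genes brighter than the median gene. Peroxisomal genes, 16 of the 48 members, made up 6 of the 13 and 6 of the 17 rises. The share of them that rose was 37.5% in each pair, beside 27.1% and 35.4% of all members. Hacl1 was higher by 0.97 ± 0.09 in FXRα4 over FXRα3 (limma adjusted p = 2.87e-08) and 0.92 ± 0.09 in FXRα2 over FXRα1 (adjusted p = 5.13e-08), Decr2 by 0.64 ± 0.06 (adjusted p = 6.01e-09) and 0.92 ± 0.06 (adjusted p = 1.95e-11), and Acaa2 by 0.41 ± 0.05 (adjusted p = 3.33e-07) and 0.64 ± 0.05 (adjusted p = 3.22e-10). Eci2 (0.28 and 0.67), Phyh (0.29 and 0.67), Acot12 (0.32 and 0.25) and Acad11 (0.31 and 0.36) rose in both pairs too. With median centring the calls for Eci2 (0.11), Phyh (0.12) and Acot12 (0.14) on the long form and Acot12 (0.13) on the short form were lost. Crat fell in both pairs (−0.53 and −0.30), as did Amacr (−0.78 and −0.35). Bdh1 rose by 1.16 ± 0.11 in FXRα2 over FXRα1 (adjusted p = 3.6e-08), and FXRα4 over FXRα3 did not pass (0.25 ± 0.11, adjusted p = 0.106).

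**Figure D3:**
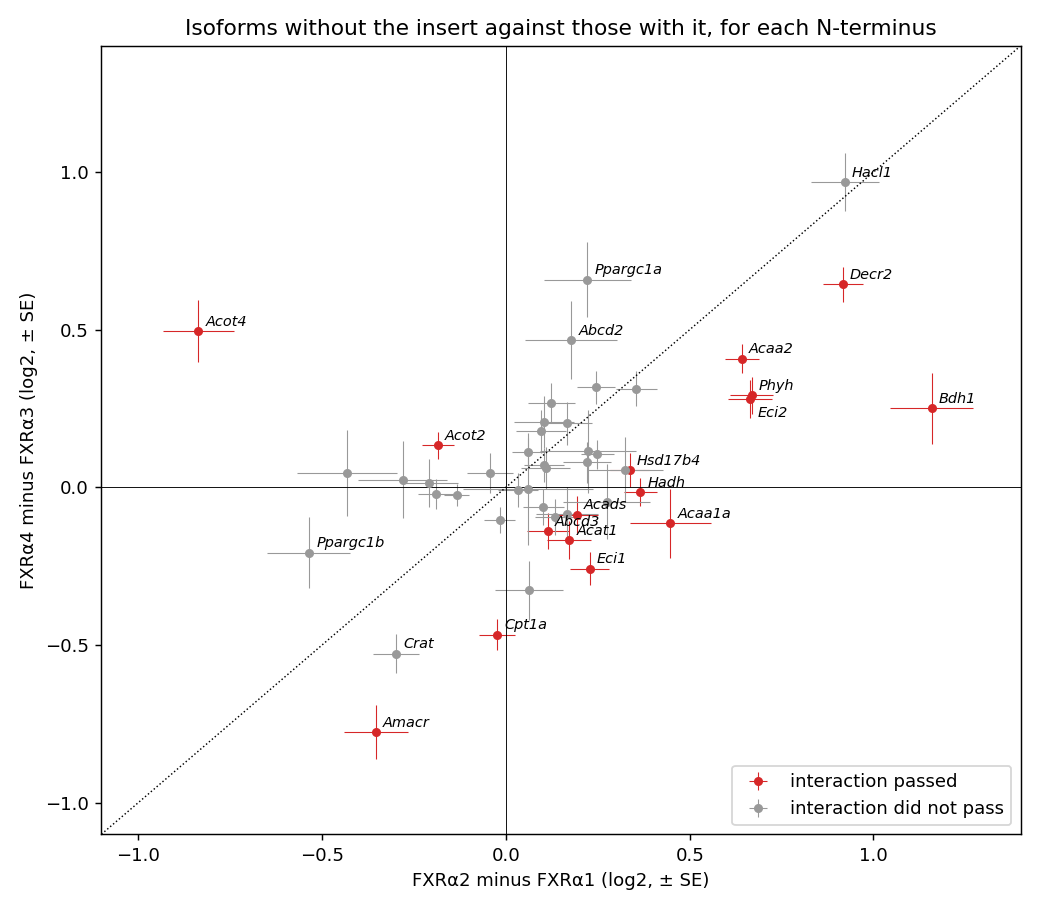
Each point is 1 gene, with the log2 difference FXRα2 minus FXRα1 across and FXRα4 minus FXRα3 upwards, ± SE, and the dotted line marks equal differences. Red points passed the test of the difference between the 2 differences. Hacl1 lies on the line, Bdh1 lies far to its right at 1.16 and 0.25, and Acot4 lies in the opposite quadrant at −0.84 and 0.50.

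The effect of losing the insert differed between the long and the short N-terminus for 16 members, 2 with a positive and 14 with a negative interaction (4.17% and 29.2%), against 7.24% and 5.63% of all genes, and 12% and 9.54% of those brighter than the median gene. The interaction is FXRα4 minus FXRα3, less FXRα2 minus FXRα1. Bdh1 gave −0.91 ± 0.16 (limma adjusted p = 0.000476), Cpt1a −0.44 ± 0.07 (adjusted p = 0.000157) and Eci1 −0.49 ± 0.07 (adjusted p = 0.000105), with insert differences of 0.25 and 1.16 for Bdh1, −0.47 and −0.023 for Cpt1a, and −0.26 and 0.23 for Eci1 on the long and the short form. Acot4 gave 1.33 ± 0.14 (adjusted p = 1.14e-06), being higher by 0.50 ± 0.10 in FXRα4 over FXRα3 and lower by 0.84 ± 0.10 in FXRα2 over FXRα1. Hacl1 did not pass (0.046 ± 0.13, adjusted p = 0.893). Without FXRα3 replicate 2, 9 members had a negative interaction, and without FXRα1 replicate 2, 4 had a positive one.

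Averaged over both insert forms, the longer N-terminus went with lower levels in most roles. In the mean of FXRα4 and FXRα3 against the mean of FXRα2 and FXRα1, 24 of 48 members fell and 1 rose (50% and 2.08%), against 11.8% and 8.32% of all genes, and with median or 75th percentile centring 19 fell and 2 rose. The median member was −0.14, beside 0.0064 over all genes. Among the 39 brighter members, 24 fell and 0 rose (61.5% and 0%), against 20.6% and 13.1% of all genes in that brighter part. The falls took in 11 of 16 peroxisomal genes, 10 of 21 mitochondrial genes, Acot4 and Acot12 of 5 thioesterases, and Bdh1 of 4 ketone body genes. Falls of at least 0.5 were in Acot4 (−0.68 ± 0.07, limma adjusted p = 1.94e-07), Cpt1a (−0.62 ± 0.03, adjusted p = 2.82e-11), Bdh1 (−0.62 ± 0.08, adjusted p = 5.04e-06) and Hsd17b4 (−0.52 ± 0.04, adjusted p = 9.47e-10). Smaller falls included Amacr (−0.41), Decr2 (−0.37), Acad10 (−0.34), Ehhadh (−0.34), Abcd3 (−0.33), Acaa2 (−0.33), Eci2 (−0.31) and Acadm (−0.24). The 1 rise was Ppargc1a (0.34 ± 0.08, limma adjusted p = 0.00514), and its dimmer probe set did not pass (0.23, adjusted p = 0.0735). Its group means were 5.79 with FXRα4 against 5.23 with FXRα2, but 5.13 with FXRα3 against 5.01 with FXRα1. Taken separately, 23 members fell and 3 rose in FXRα4 against FXRα2 (47.9% and 6.25%), against 12% and 11.7% of all genes, and 10 fell and 1 rose in FXRα3 against FXRα1 (20.8% and 2.08%), against 4.65% and 2.21% of all genes, a pair of comparisons added after the data had been seen. Of all genes brighter than the median gene, 20.6% fell and 18.3% rose in the first of these, and 8.58% and 4.06% in the second. By role, FXRα4 against FXRα2 had falls in 8 of 16 peroxisomal, 12 of 21 mitochondrial, 1 of 5 thioesterase and 2 of 4 ketone body genes. FXRα3 against FXRα1 had falls in 5, 3, 2 and 0 of these, and 1 mitochondrial gene rose. Bdh1 fell by 1.07 ± 0.11 in FXRα4 against FXRα2 (adjusted p = 2.54e-07), and the mean therefore joins unlike effects for the members with an interaction. Of the falls, those of Acox3, Crot, Pex11a, Etfa and Etfdh (−0.17 to −0.12) lost their calls with median centring (−0.14 to −0.082). They were also lost without any 1 of 9 arrays for Acox3 (−0.18 to −0.13), 6 for Crot (−0.12 to −0.091) and 11 for Pex11a (−0.14 to −0.12), without FXRα4 replicate 1 for Etfa (−0.13), and without FXRα2 replicate 2 for Etfdh (−0.12).

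**Figure D4:**
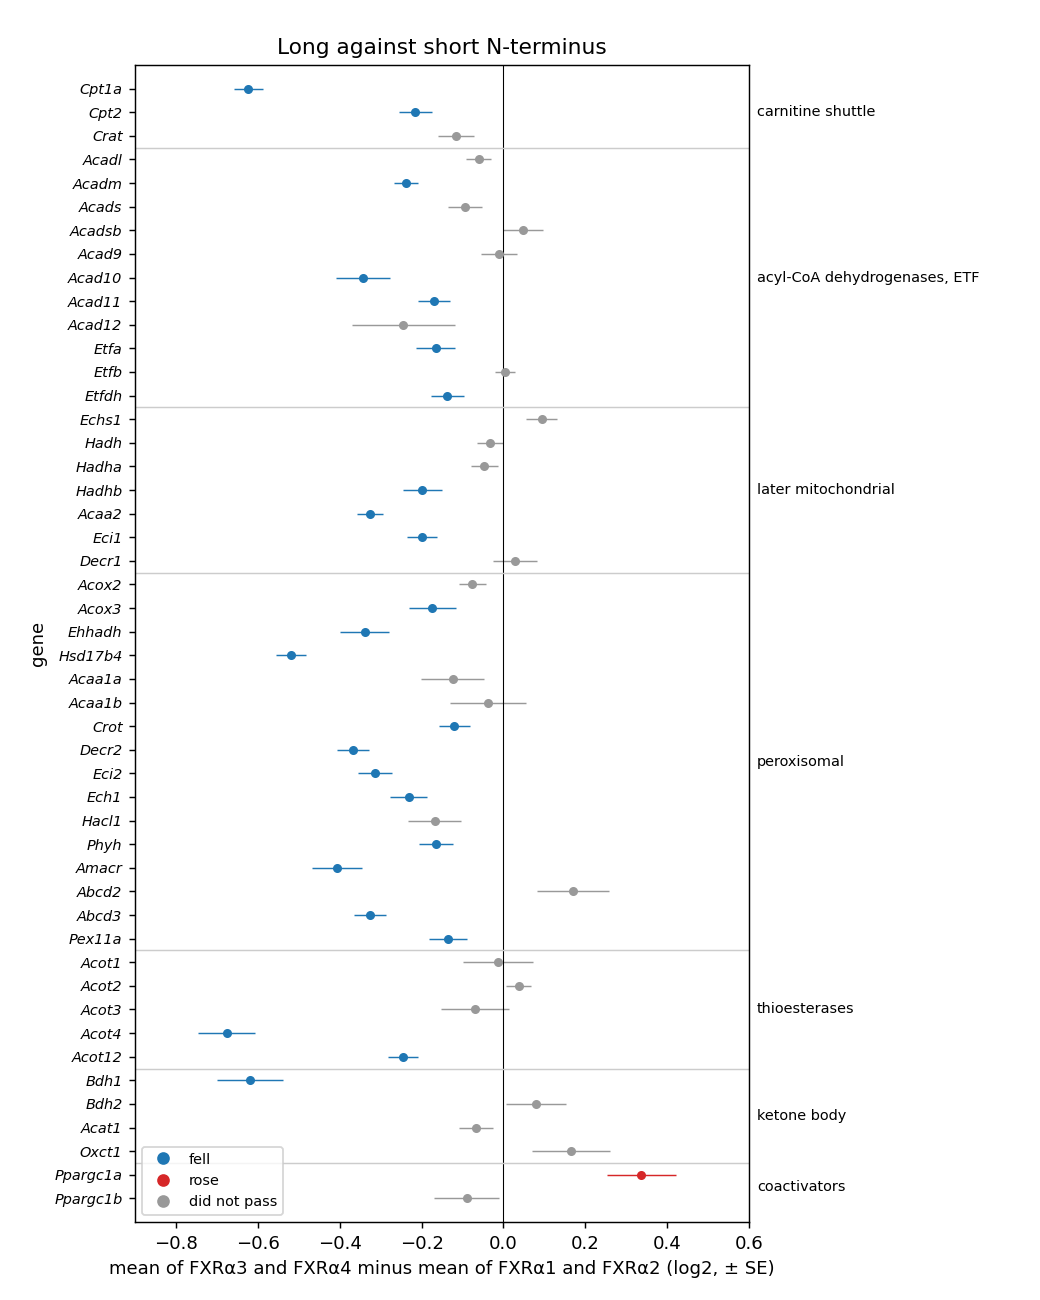
Points are the log2 difference of the mean of FXRα4 and FXRα3 minus the mean of FXRα2 and FXRα1, ± SE, for each of 48 genes ordered by role, with blue for genes that fell, red for those that rose and grey for those that did not pass. Points in the carnitine shuttle and peroxisomal rows lie mostly left of 0, with Acot4 (−0.68) farthest left and Ppargc1a (0.34) farthest right.

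Other genes of the pathway were counted by list, beside rises in 18%, 7.45%, 17.5% and 8.42% and falls in 15.7%, 6.62%, 16.7% and 4% of all genes with FXRα4, FXRα3, FXRα2 and FXRα1. Of 28 measured enzymes and transporters outside the members, 4 rose and 7 fell with FXRα4, 2 and 5 with FXRα3, 5 and 6 with FXRα2, and 2 and 2 with FXRα1. Cpt1c, the brain-type carnitine palmitoyltransferase, rose with FXRα4 (1.03) and fell with FXRα1 (−0.40), and Acot5, a peroxisomal thioesterase gene in mouse, fell with FXRα4 (−1.02). The fall of Acot5 with FXRα3 (−0.53 to −0.32 with 1 array left out) was lost in at least 1 of those settings. Oxct2a, a relative of Oxct1, rose with FXRα2 (0.91). Its rise with FXRα4 (0.36 to 0.65 with 1 array left out) was lost in at least 1 of those settings. The thioesterase gene Acot6 fell with FXRα4 (−0.67), FXRα3 (−0.28) and FXRα2 (−0.92), the FXRα3 call being lost without FXRα3 replicate 1 or 2 or any GFP array (−0.29 to −0.24). Of 22 uptake and activation genes, 8 rose and 1 fell with FXRα4, 4 and 1 with FXRα3, 7 and 1 with FXRα2, and 3 and 1 with FXRα1, with the fatty acid transport protein gene Slc27a1 at 1.38, 1.05, 1.17 and 0.50 in that order. Fabp4, a fatty acid binding protein best known from adipocytes, rose with FXRα4 (0.84) and FXRα2 (0.60, and 0.40 without FXRα2 replicate 3). Its rise with FXRα3 (0.49 to 0.63 with 1 array left out) was lost in at least 1 of those settings. Slc27a5, the liver bile acid-CoA ligase, rose with FXRα4 (0.42). It also rose with FXRα3 (0.29 to 0.39 with 1 array left out) and FXRα2 (0.24 to 0.32, and down to 0.046 with other settings).

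Among 24 regulators, read against the same all-gene shares, 5 rose and 10 fell with FXRα4, 2 and 3 with FXRα3, 7 and 6 with FXRα2, and 6 and 0 with FXRα1. Ppara rose with FXRα2 alone of the isoforms (0.71 ± 0.09, limma adjusted p = 8.81e-07) and was also higher in FXRα2 over FXRα1 (0.58), while FXRα4 over FXRα3 (0.10) did not pass. Creb3l3, a liver transcription factor that acts with PPARα in fasting, rose with FXRα4 (2.06), FXRα2 (2.96) and FXRα1 (0.64). Pdk4, a PPARα and FXR target that spares pyruvate, rose with FXRα4 (1.17), FXRα3 (0.83), FXRα2 (2.18) and FXRα1 (1.20), and Lpin1, a PGC-1α partner, fell with FXRα4 (−0.705), FXRα3 (−0.448) and FXRα2 (−1.003). Fgf21, the fasting hormone, rose with FXRα2 (0.45), a call lost with quantile normalization (0.27) and median centring (0.23). Of the 5 monocarboxylate export genes, Slc16a7 rose with FXRα4 (0.66) and FXRα2 (0.49), Slc16a1 fell with FXRα4 (−0.47) and rose with FXRα1 (0.37), and Slc16a3 rose with FXRα4 (1.16), FXRα2 (2.85) and FXRα1 (0.70), while its fall with FXRα3 (−0.35) was lost without FXRα3 replicate 2 (−0.24) or 3 (−0.37) or GFP replicate 1 (−0.38) or 3 (−0.25). Slc16a6, a ketone body exporter known from zebrafish, rose with all 4 isoforms (0.53, 0.38, 0.55 and 0.52 for FXRα4, FXRα3, FXRα2 and FXRα1). Of 16 peroxisome biogenesis and membrane genes, 5 rose and 4 fell with FXRα4, 2 and 0 with FXRα3, 8 and 4 with FXRα2, and 4 and 0 with FXRα1, with Pex19, the import receptor for membrane proteins, up with all 4 (0.83, 0.80, 0.90 and 0.87) and Pex2, an import ubiquitin ligase, down with FXRα4 (−0.85) and FXRα2 (−0.59). The peroxisomal membrane protein genes Pxmp2 (1.04 with FXRα4 and 0.86 with FXRα2) and Pxmp4 (0.92 with FXRα2) rose.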

How the data were processed

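The deposited table holds log2 values of 35556 probe sets on 15 arrays; per the submitters' processing notes, the authors used Affymetrix Expression Console 1.1 and PLIER, which are named there with no role; how background was corrected and arrays were scaled is not given in the sources used. The values run from 1.93 to 13.8, the basis for taking them as log2. No depth applies to arrays, and 3 arrays a group limit the precision. Of the probe sets, 21218 had 1 gene symbol, 1881 several and 12457 none in the platform annotation; the brightest per gene was kept, leaving 18820 genes with no filter on dim ones.

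With limma 3.58.1 (R 4.3.3), 1 linear model of the 5 group means used every array (lmFit, contrasts, eBayes with a mean-variance trend), two-sided, with Benjamini-Hochberg adjustment over all genes within each contrast, and was tested on simulated data. The members and lists were chosen with earlier results of these data known. Per-array values are given for members that passed with a log2 change of at least 0.5 against GFP or between isoforms differing by the insert, and for Cpt1a, Bdh1, Ppargc1a, Ehhadh and, chosen after its values were seen, Hsd17b4. Other pathway genes named are among the 4 largest changes that passed in a list with FXRα2 or FXRα4, or are Ppara, Pdk4 and Fgf21. Promoters were RefSeq's. Python 3.11.15, pandas 2.3.3 and matplotlib 3.10.9 handled tables and figures.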

Additional observations from a re-analysis of the deposited data

Results flagged for a closer look

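For 16 members the effect of losing the insert differed between the long and the short N-terminus by the interaction term itself (limma adjusted p under 0.05 over all genes), a difference measured over 3 arrays in each of 4 groups. Acot4 gave 1.33 ± 0.14 (adjusted p = 1.14e-06), from 0.50 on the long and −0.84 on the short form. Bdh1 gave −0.91 ± 0.16 (adjusted p = 0.000476), from 0.25 on the long and 1.16 on the short form. Acaa1a gave −0.56 ± 0.16 (adjusted p = 0.0183), from −0.11 on the long and 0.45 on the short form. Eci1 gave −0.49 ± 0.07 (adjusted p = 0.000105), from −0.26 on the long and 0.23 on the short form. Cpt1a gave −0.44 ± 0.07 (adjusted p = 0.000157), from −0.47 on the long and −0.023 on the short form. The remaining negative interactions were in Acads (−0.28), Hadh (−0.38), Acaa2 (−0.23), Hsd17b4 (−0.28), Decr2 (−0.27), Eci2 (−0.39), Phyh (−0.38), Amacr (−0.42), Abcd3 (−0.25) and Acat1 (−0.34), and Acot2 was positive (0.32). The call was lost when 1 array was left out for Acads (FXRα1 replicate 1, FXRα2 replicate 1, FXRα3 replicate 1 or 2, or FXRα4 replicate 3, −0.27 to −0.22), Acaa2 (FXRα2 replicate 2 or FXRα3 replicate 1, −0.22 to −0.20), Acaa1a (FXRα3 replicate 2 or FXRα4 replicate 3, −0.49 to −0.44), Decr2 (FXRα2 replicate 1 or FXRα3 replicate 1 or 2, −0.26 to −0.22), Amacr (FXRα1 replicate 1, FXRα2 replicate 1, FXRα3 replicate 2 or 3, or FXRα4 replicate 1, −0.41 to −0.36) and Abcd3 (any 1 of 8 arrays, −0.26 to −0.19). It was lost without the mean-variance trend for Acads, Acaa2, Amacr and Abcd3, and with median centring for Acot2 (0.26).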

How the results depend on the processing

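Centring each array on its median gene gave 6 rises and 28 falls with FXRα4, 9 and 21 with FXRα2, 4 and 13 with FXRα1, 6 and 18 in FXRα4 against FXRα3, 10 rises in FXRα2 against FXRα1, 2 rises for the N-terminus and 1 positive interaction. All-gene shares were not counted with this centring. Medians of the members became −0.232 with FXRα4, −0.120 with FXRα3, −0.101 with FXRα2, −0.111 with FXRα1, −0.122 in FXRα4 against FXRα3, 0.0124 in FXRα2 against FXRα1, −0.0988 for the N-terminus and −0.155 for the interaction. It turned the sign of Acaa2 (−0.0402) and Eci2 (−0.0361) with FXRα4, of Acadm (−0.0369), Hadha (−0.00753), Eci1 (−0.0695) and Abcd3 (−0.0396) with FXRα2, and of Acot2 (−0.0402) in FXRα4 against FXRα3. With 75th percentile centring the medians were −0.0571 for FXRα1, 0.169 for FXRα2 against FXRα1, −0.0960 for the N-terminus and −0.135 for the interaction, and quantile normalization gave 0.0601 for FXRα2. The single rise with FXRα3 became 2 without the mean-variance trend, with quantile normalization or with 16 added, 3 with 75th percentile centring, 4 without the dimmest 25% of genes, and 6 with the contrast's groups alone or with the replicate block. The N-terminus count of rises was 2 with quantile normalization, 75th percentile centring and the replicate block. In the added comparisons, 3 rose in FXRα4 against FXRα2 and 10 fell in FXRα3 against FXRα1.

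Over the settings that left out 1 array, falls with FXRα2 ranged from 5 to 9, rises with FXRα3 from 0 to 3, N-terminus rises from 1 to 2, positive interactions from 2 to 4 and negative ones from 9 to 16. Medians ranged from −0.0562 to −0.00499 with FXRα4, 0.0874 to 0.126 with FXRα2, −0.0416 to 0.0101 with FXRα1, 0.0967 to 0.161 in FXRα2 against FXRα1, and −0.134 to −0.0732 for the interaction. Of 174 member calls, 80 kept both the call and about the same size under every setting tried. The others include calls that still passed in the same direction with a marked change in size. Without the mean-variance trend 18 calls were lost, and with median centring 35 were lost and 7 changed sign.

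Replicate numbers were not taken to pair the arrays: 18 of 30 same-numbered pairs correlated above 0.1 (−0.21 to 0.43, median 0.16; other numbers, median −0.077), and 13 of 15 arrays correlated best with their own number, a hint from the data and not the design. The replicate block kept all 174 member calls. With 3 arrays a group and no scanner files used here, signal over background was not assessed, so values of the 9 members dimmer than the median gene are the least certain.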
